A study of Mus musculus with 6 samples.

Results

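Growth factor ligands of receptor tyrosine kinases are the subject here: insulin-like growth factor 1 (Igf1), neuregulin 1 (Nrg1), amphiregulin (Areg), epiregulin (Ereg), heparin-binding EGF-like growth factor (Hbegf), vascular endothelial growth factor A (Vegfa), the platelet-derived growth factor chains Pdgfa and Pdgfb, hepatocyte growth factor (Hgf) and Gas6. The members were chosen by gene symbol, with the probe set of highest mean over 6 arrays taken where a gene had several. Of the 10 listed genes, 9 were paired with a probe set, 1 each, out of 22206 gene probe sets that name 19505 genes, and Areg is not analysed here. RNA was measured on Affymetrix Clariom S mouse arrays in 3 groups of 2 arrays. All groups are labelled as immortalized melan-a cells, a melanocyte line, with the C57BL/6J genotype. All were grown in RPMI with serum and given no treatment. The group mKitK641E(T), below T, and the group mKitK641E(PT), below PT, are labelled as carrying the receptor tyrosine kinase Kit with the activating K641E substitution and as transformed melanoma. Their titles add C3# for T and hi exp for PT, and the labels do not say what T, PT and these additions stand for. The group mVec carries the control vector named CD516B2 in its titles and is labelled as melanocytes. Each group is 1 line, and nothing says whether its 2 arrays come from separate cultures, so that errors and p-values measure only the spread between these arrays, which may be technical.

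Receptor tyrosine kinases are cell surface proteins that start signalling through the ERK and PI3K pathways when a secreted or membrane-bound ligand binds, and most of them pair up on binding. Cells that make both a ligand and its receptor can stimulate themselves, and ligands released by one cell type can act on its neighbours. In skin, Hgf and Kit ligand act on melanocytes, and Hgf, Igf1 and Nrg1 from surrounding cells are known to keep melanoma cells growing or to protect them from kinase inhibitors.

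Sequences just before the transcription start are shown for 3 members above background whose RefSeq windows could be matched, the one with the largest fall (Igf1), one that rose (Vegfa) and one whose differences did not pass the test (Pdgfa). Windows of GRCm38.p6 were found for 6 of the 10 genes: Igf1, Vegfa, Pdgfa, Hgf, Gas6 and Areg. Each sequence holds the 250 bases before the start on the gene's own strand, taken at the outermost start listed, at chr10:87860861-87861110 (plus strand) for Igf1, chr17:46032378-46032627 (minus strand) for Vegfa and chr5:138994945-138995194 (minus strand) for Pdgfa. Capitals mark matches on either strand to 5 motifs, namely the GC box (GGGCGG), the CCAAT box (CCAAT), the TATA box (TATAAA), the AP-1 site (TGACTCA) and the core of the hypoxia element (ACGTG).
Igf1: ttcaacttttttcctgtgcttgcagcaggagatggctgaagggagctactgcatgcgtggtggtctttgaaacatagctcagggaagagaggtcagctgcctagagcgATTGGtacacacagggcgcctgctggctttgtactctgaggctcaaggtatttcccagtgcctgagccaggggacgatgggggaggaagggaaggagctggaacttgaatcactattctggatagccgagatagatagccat
Vegfa: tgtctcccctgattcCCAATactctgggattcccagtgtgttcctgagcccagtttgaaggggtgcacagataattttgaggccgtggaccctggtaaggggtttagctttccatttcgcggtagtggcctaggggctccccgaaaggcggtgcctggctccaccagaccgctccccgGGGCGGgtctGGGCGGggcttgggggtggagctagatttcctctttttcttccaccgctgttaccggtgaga
Pdgfa: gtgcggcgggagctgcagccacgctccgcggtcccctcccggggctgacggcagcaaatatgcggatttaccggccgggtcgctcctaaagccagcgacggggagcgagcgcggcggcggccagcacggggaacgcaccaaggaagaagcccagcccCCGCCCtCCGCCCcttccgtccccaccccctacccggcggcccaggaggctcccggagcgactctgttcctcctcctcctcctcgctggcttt
The Igf1 window held 1 CCAAT box, read on the opposite strand, and no GC box. The Vegfa window held 2 GC boxes, starting 72 and 62 bases before the start, and 1 CCAAT box. The Pdgfa window held 2 GC boxes on the opposite strand. No TATA box, AP-1 site or hypoxia core was found in these 3 windows. Over all 32851 windows of this length in the table, 32.7% held a GC box, 33.8% a CCAAT box, 12.4% a TATA box, 4.46% an AP-1 site and 16.6% the hypoxia core. The windows of Vegfa and Pdgfa were 59.2% and 72.4% G or C and that of Igf1 was 52.8%, beside a median of 52.4% over all windows. A match is a description of the letters and not of binding.

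The values are log2 expression values as deposited. The background limit of an array was the 95th percentile over its 5222 probe sets for negative controls, which fell between 8.74 and 9.16, and 29% to 32.6% of gene probe sets lay above it. A group is called at background when neither array is above its limit. Then no fold is given, or a bound ("at least") where the other group is above its limit. Markers of the labelled cell type were nearly absent: of 7 melanocyte markers only the transcription factor Mitf was above the limit on any array, on both T arrays. Sox10, Tyr, Tyrp1, Dct, Pmel and Mlana were at background in all 3 groups and were not called. Mitf was called higher in T than in mVec, by at least 1.04-fold (1.03 ± 0.20, limma adjusted p = 0.00314). It was also called higher in PT (0.84 ± 0.20, limma adjusted p = 0.00901), between groups at background, a call lost in 2 of 13 alternatives. Kit, the gene the labels name as introduced, was at background on all arrays, with log2 values of 4.53 and 5.18 on the T arrays, 4.53 and 3.84 on the PT arrays and 4.68 and 4.97 on the mVec arrays. Kit was thus not called higher than in mVec on the arrays labelled with Kit K641E, those titled hi exp included (T minus mVec 0.03 ± 0.30, limma adjusted p = 0.956, and PT minus mVec -0.63 ± 0.30, limma adjusted p = 0.141), and the labels are not borne out by it. Whether its probes match the introduced sequence is not known here, and T and PT below mean the arrays so labelled. The T and PT differences from mVec share the mVec arrays and are not independent.

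Igf1, a growth factor made by liver and by mesenchymal cells that signals through Igf1r, was bright in mVec and at background in both T and PT. It read, on the log2 scale, 6.53 and 6.06 on the T arrays, 7.88 and 7.07 on the PT arrays and 13.86 and 13.80 on the mVec arrays. Both mVec arrays stood far above the 4 others, and the T and PT arrays did not overlap either. Relative to mVec, Igf1 fell at least 31.9-fold in T (log2 difference -7.53 ± 0.29, the standard error of the limma fit, adjusted p = 1.08e-07). In PT the fall was at least 28.2-fold (-6.35 ± 0.29, limma adjusted p = 1.98e-07). In bulk RNA, fewer cells that make a transcript and less transcript per cell cannot be told apart. Its main receptor, Igf1r, was above the limit on all arrays, with log2 values of 9.77 and 10.11 on the T arrays, 9.99 and 9.94 on the PT arrays and 11.26 and 11.35 on the mVec arrays. Igf1r fell as well, 2.57-fold in T and 2.53-fold in PT (limma adjusted p = 0.000664 and 0.000614). The insulin receptor Insr, which shares substrates with Igf1r, gave differences of 0.45 ± 0.22 in T and 0.02 ± 0.22 in PT that did not pass the test.

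Most measured markers of fibroblasts, a known source of Igf1, moved with it, and Col1a2 moved the other way. Of the 10 listed, 9 were measured. In T 6 fell and 2 rose, beside 15.5% and 16.9% of all gene probe sets, and in PT 6 fell and 2 rose, beside 18% and 17.9%. The mean log2 value over the list was 6.54 to 6.61 in T, 5.92 to 6.07 in PT, and 10.60 to 10.65 in mVec. Col1a1, Col3a1, Dcn, Fap and Postn were above the limit on both mVec arrays. Of the calls, 2 in each comparison were between groups at background, those of Lum, which fell, and Fbln1. Col1a2 and Fbln1 were the 2 called higher. Col1a2 had log2 values of 9.23 and 9.22 on the T arrays, 9.12 and 9.33 on the PT arrays and 5.06 and 5.08 on the mVec arrays. Its rise was at least 1.168-fold in T and 1.165-fold in PT, a call lost in 0 of 13 alternatives in each line. The Fbln1 call was lost in 2 of 12 alternatives in each line, while Thy1 was at background on every array. The part of these cells or of this programme in the Igf1 result was not tested. Macrophages also make Igf1, and 0 of their 7 measured markers was above the limit on any array. Of 6 endothelial markers only Cdh5 was above it, in mVec alone, and of 6 keratinocyte markers 0 were.

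**Figure D1:**
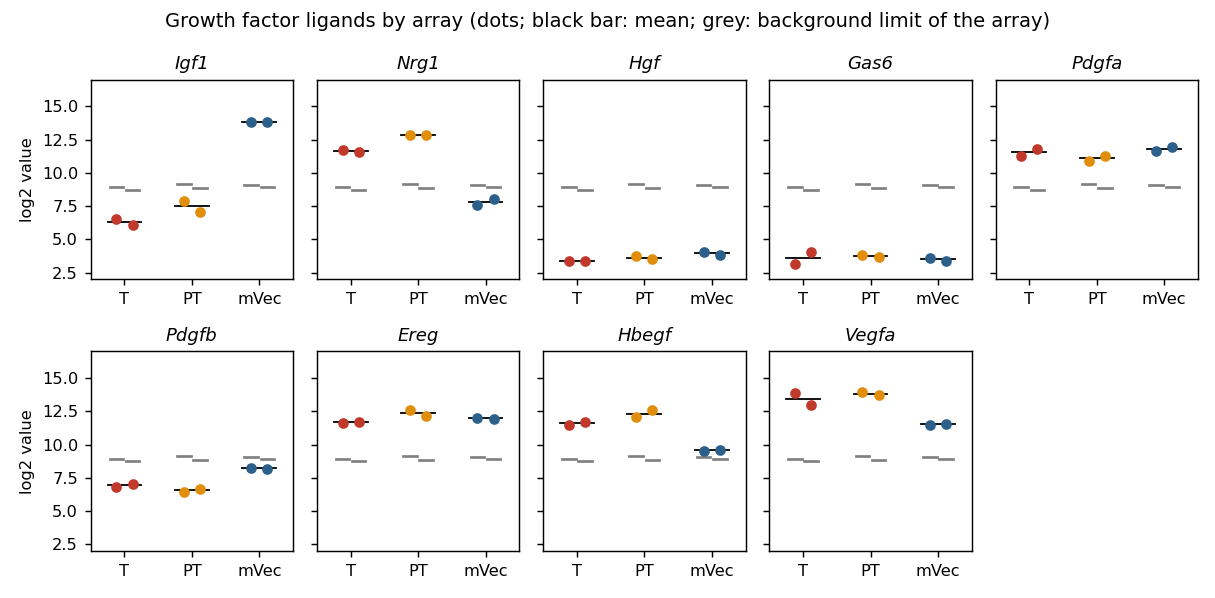
Log2 expression of the 9 measured ligands on each array (y axis) for T, PT and mVec (x axis), with 1 dot per array, a black bar at the group mean and grey bars at the background limit of the array. Igf1 is above its limit only in mVec, Nrg1 only in T and PT, and Hgf, Gas6 and Pdgfb on no array.

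Among the ligands of the EGF receptor family, Nrg1 and Hbegf were higher in both T and PT, while Ereg did not pass the test in either. Nrg1, the ligand of Erbb3 and Erbb4, had log2 values of 11.71 and 11.54 on the T arrays, 12.87 and 12.86 on the PT arrays and 7.57 and 7.995 on the mVec arrays. Both mVec values were under the limit, all 4 others were above it, and the 3 groups did not overlap. Relative to mVec, Nrg1 rose at least 6.16-fold in T (log2 difference 3.84 ± 0.22, limma adjusted p = 1.13e-06). In PT the rise was at least 14.5-fold (5.08 ± 0.22, limma adjusted p = 1.46e-07).

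Hbegf, a membrane-anchored ligand of Egfr and Erbb4 that is released by metalloproteases, had log2 values of 11.44 and 11.73 on the T arrays, 12.05 and 12.58 on the PT arrays and 9.55 and 9.61 on the mVec arrays. All values were above the limit, and both T and PT lay above mVec without overlap. It was 4.01-fold higher in T than in mVec (2.002 ± 0.24, limma adjusted p = 0.000119) and 6.66-fold higher in PT (2.74 ± 0.24, limma adjusted p = 1.07e-05). Ereg, a ligand of Egfr and Erbb4, had log2 values of 11.64 and 11.69 on the T arrays, 12.57 and 12.15 on the PT arrays and 12.03 and 11.93 on the mVec arrays. All were above the limit. By group mean T was lowest, mVec between and PT highest, but no pair of groups passed the test. The T minus mVec difference was -0.31 (95% interval -0.80 to 0.18, limma adjusted p = 0.349), and the PT minus mVec difference was 0.38 (95% interval -0.11 to 0.87, limma adjusted p = 0.229).

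None of the 4 receptors of the EGF family was called higher than in mVec. Egfr had log2 values of 7.43 and 7.48 on the T arrays, 7.57 and 7.54 on the PT arrays and 11.42 and 11.20 on the mVec arrays, so that it was at background in both T and PT. The bounds on its fall were 5.55-fold for T and 4.90-fold for PT (limma adjusted p = 6.36e-07 and 4.97e-07). Erbb2, the partner receptor that binds no ligand itself, had 8.04 and 8.45 on the T arrays, 6.93 and 7.13 on the PT arrays and 9.74 and 9.52 on the mVec arrays. The fall of Erbb2 was at least 1.74-fold for T and 1.54-fold for PT (limma adjusted p = 0.000937 and 1.06e-05). Erbb3 and Erbb4, the receptors that bind Nrg1, were at background on all arrays, with log2 values from 3.55 to 4.11 and from 4.60 to 5.21.

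Vegfa, the main growth factor of blood vessels, was above the limit in every group and higher in both T and PT. It read, on the log2 scale, 13.84 and 12.94 on the T arrays, 13.94 and 13.72 on the PT arrays and 11.50 and 11.57 on the mVec arrays. The T arrays had an SD of 0.63, the widest of the 3 groups, and both were above every mVec value. Vegfa was 3.63-fold higher in T than in mVec (1.86 ± 0.29, limma adjusted p = 0.000676) and 4.92-fold higher in PT (2.30 ± 0.29, limma adjusted p = 0.000133).

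Of its receptors, Flt1 had log2 values of 10.12 and 9.76 on the T arrays, 10.15 and 10.51 on the PT arrays and 11.82 and 11.90 on the mVec arrays. Flt1 thus fell 3.79-fold in T and 2.88-fold in PT (limma adjusted p = 0.000117 and 0.000426). Kdr, the main signalling receptor of Vegfa in endothelium, was at background throughout, with log2 values from 3.53 to 3.89. Of the co-receptors Nrp1 and Nrp2, Nrp1 was not measured. Nrp2 had 11.03 and 10.54 on the T arrays, 12.38 and 12.36 on the PT arrays and 13.54 and 13.52 on the mVec arrays. It fell 6.71-fold in T and 2.23-fold in PT (limma adjusted p = 1e-05 and 0.00235), and all 3 groups were apart.

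The chains of platelet-derived growth factor form dimers that bind Pdgfra, which was not measured here, and Pdgfrb. Pdgfa had log2 values of 11.28 and 11.79 on the T arrays, 10.91 and 11.29 on the PT arrays and 11.67 and 11.92 on the mVec arrays. T overlapped both other groups, and both PT arrays were under both mVec arrays. The T minus mVec difference was -0.26 (95% interval -0.82 to 0.30, limma adjusted p = 0.515). The PT minus mVec difference of -0.70 ± 0.25 did not pass the test (limma adjusted p = 0.0563), and it passed in 8 of 13 alternatives, with adjusted p from 0.0183 to 0.285 over them. Among those 8, the fit of PT and mVec alone and the fits without either T array are the same test. Pdgfb was at background on every array, with 6.84 and 7.01 on the T arrays, 6.46 and 6.65 on the PT arrays and 8.25 and 8.19 on the mVec arrays. Although no fold is given, its log2 values were called lower in T (-1.30 ± 0.20, limma adjusted p = 0.000701) and in PT (-1.66 ± 0.20, limma adjusted p = 0.000108). Pdgfrb, the receptor of Pdgfb and a marker of mesenchymal cells, had 12.08 and 12.31 on the T arrays, 11.40 and 11.76 on the PT arrays and 14.53 and 14.57 on the mVec arrays. It fell 5.13-fold in T and 7.85-fold in PT (limma adjusted p = 2.25e-05 and 3.44e-06).

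Hgf, the ligand of Met, and Gas6, the ligand of Axl, Mertk and Tyro3, were at background on all arrays. Hgf had log2 values of 3.36 and 3.33 on the T arrays, 3.74 and 3.52 on the PT arrays and 4.07 and 3.85 on the mVec arrays. Its T minus mVec difference of -0.61 ± 0.21 was called by a narrow margin (limma adjusted p = 0.0485) between groups that were both at background, and the call was lost in 8 of 11 alternatives (adjusted p from 0.0402 to 0.265). Those 8 were centring the arrays on their medians, fitting T and mVec alone, and leaving out any 1 of the 6 arrays. Among those 8, fitting T and mVec alone and leaving out either PT array are the same test. The PT minus mVec difference of Hgf, -0.33 ± 0.21, did not pass the test. Gas6 had 3.17 and 4.06 on the T arrays, 3.86 and 3.65 on the PT arrays and 3.58 and 3.40 on the mVec arrays. The Gas6 difference was 0.13 (95% interval -0.52 to 0.78) for T minus mVec and 0.27 (95% interval -0.38 to 0.92) for PT minus mVec, and neither passed the test. The T arrays lay on either side of the PT and mVec arrays, and both PT arrays were above both mVec arrays.

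Of their receptors, Met and Axl were above the limit on all arrays. Met had log2 values of 10.35 and 10.39 on the T arrays, 10.40 and 10.53 on the PT arrays and 12.89 and 12.82 on the mVec arrays. Met fell 5.61-fold in T and 5.24-fold in PT (limma adjusted p = 7.96e-06 and 7.22e-06). Axl had 14.72 and 14.49 on the T arrays, 14.41 and 14.80 on the PT arrays and 15.35 and 15.38 on the mVec arrays, a fall of 1.69-fold in each line (limma adjusted p = 0.0241 and 0.0222). Both Axl calls were lost in 4 of 13 alternatives, namely centring, leaving out either mVec array, and leaving out T replicate 2 or PT replicate 1 (highest adjusted p 0.115 for T and 0.151 for PT). Mertk was at background in both T and PT, with falls from mVec of at least 7.10-fold for T and 6.27-fold for PT. Tyro3 was at background on all arrays, and its log2 values were called higher in T (0.90 ± 0.28, limma adjusted p = 0.0314) and in PT (1.22 ± 0.28, limma adjusted p = 0.00556). The T call of Tyro3 was lost when any 1 of the T or mVec arrays was left out (adjusted p up to 0.192), and the PT call without mVec replicate 1 (0.0512).

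Over the 9 measured ligands, 3 were called higher and 3 lower in T than in mVec, where 16.9% of all gene probe sets were called higher and 15.5% lower. In PT, 3 were called higher and 2 lower, against 17.9% higher and 18% lower of all gene probe sets. The genes called higher were Nrg1, Hbegf and Vegfa in each line. Those called lower were Igf1 and Pdgfb in each line, and in T also Hgf. The Pdgfb call in each line and the Hgf call in T were between groups at background. Brighter probe sets were called more often than all probe sets. With only those above the median mean tested, 6915 were called in T and 7471 in PT, beside 7201 and 7975 over all. As 6 of the 9 ligands were above the limit on some array, the shares over all gene probe sets are low for a comparison with them. The median difference of the 9 ligands was -0.26 in T and 0.27 in PT, beside 0.01 and 0.08 over all gene probe sets. Centring the arrays on their medians raised every log2 difference from mVec by 0.18 in T and 0.19 in PT and turned no direction among the 9. It moved the share of calls that were higher, among all gene probe sets, to 62.3% against 52.3% as reported in T, and to 60.3% against 49.9% in PT.

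**Figure D2:**
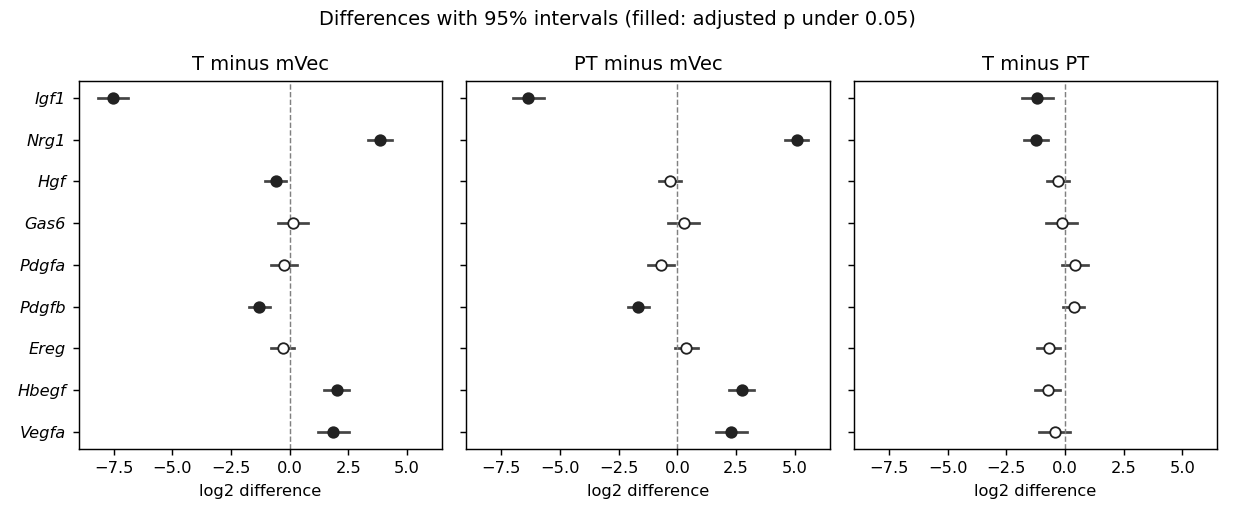
Log2 differences of the 9 measured ligands (x axis) in 3 panels (T against mVec, PT against mVec, T against PT), with 95% intervals from the limma fit that are not adjusted for the number of genes. Filled dots passed an adjusted p under 0.05. Igf1 lies at -7.53 and -6.35 against mVec and Nrg1 at 3.84 and 5.08, and the T minus PT values lie between -1.24 and 0.44. Igf1 in T and PT and Nrg1 in mVec were at background, so that these differences from mVec have no certain size.

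The comparison of T with PT asks where the lines labelled T and PT differ. Of the 9 ligands, 2 were called lower in T and 0 higher, while 2.7% of all gene probe sets were called lower and 5.67% higher. Nrg1 was 2.36-fold lower in T than in PT (log2 difference -1.24 ± 0.22, limma adjusted p = 0.01). Nrg1 no longer passed when T replicate 2 was left out (adjusted p = 0.068), nor without PT replicate 1 (0.0697) or PT replicate 2 (0.0592), in a range of 0.00222 to 0.0697 over 13 alternatives. Igf1 was called lower in T with both lines at background (-1.18 ± 0.29, limma adjusted p = 0.0374). Its call was lost without T replicate 2 (difference -0.94), without PT replicate 1 (-0.78) and with T and PT fitted alone (limma adjusted p = 0.0617). Leaving out either mVec array is the same test as that last fit.

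The 2 other EGF family ligands were nearer to the threshold than the rest. Ereg gave -0.69 ± 0.22 (limma adjusted p = 0.09) and Hbegf -0.73 ± 0.24 (limma adjusted p = 0.0991), and neither passed the test. Each passed in 3 of 13 alternatives. The T minus PT differences of Vegfa (-0.44 ± 0.29), Pdgfa (0.44 ± 0.25), Pdgfb (0.37 ± 0.20), Hgf (-0.28 ± 0.21) and Gas6 (-0.14 ± 0.29) did not pass the test. By group mean, Nrg1, Hbegf, Vegfa, Ereg and Gas6 were highest in PT, and Igf1, Pdgfa, Pdgfb and Hgf were highest in mVec. Neighbours in the order of group means all passed their tests in Igf1 and Nrg1. In Hbegf, Vegfa and Pdgfb T and PT were neighbours that did not pass, and in Ereg, Pdgfa, Hgf and Gas6 no pair of neighbours passed.

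Most of the measured receptors were called lower than in mVec. Of 16 listed receptors and co-receptors 14 were measured, all but Pdgfra and Nrp1. In T 9 fell and 1 rose, beside 15.5% and 16.9% of all gene probe sets. In PT 9 fell and 1 rose as well, beside 18% and 17.9%. As with the ligands, these shares include the dim probe sets, while 10 of the 14 receptors were above the limit on some array. The receptors that fell were Igf1r, Egfr, Erbb2, Met, Axl, Mertk, Pdgfrb, Flt1 and Nrp2 in each line, and the one called higher was Tyro3, at background. The median difference of the list was -1.37 in T and -1.25 in PT. Between T and PT, Erbb2 was called higher in T with both groups at background (1.22 ± 0.23, limma adjusted p = 0.0122), a call that was lost without T replicate 2, PT replicate 1 or PT replicate 2 (adjusted p up to 0.0946). Nrp2 was 3.01-fold lower in T than in PT (limma adjusted p = 0.00396). The other 12 measured receptors did not pass this test, and the median of the list was -0.06, beside -0.04 over all gene probe sets.

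**Figure D3:**
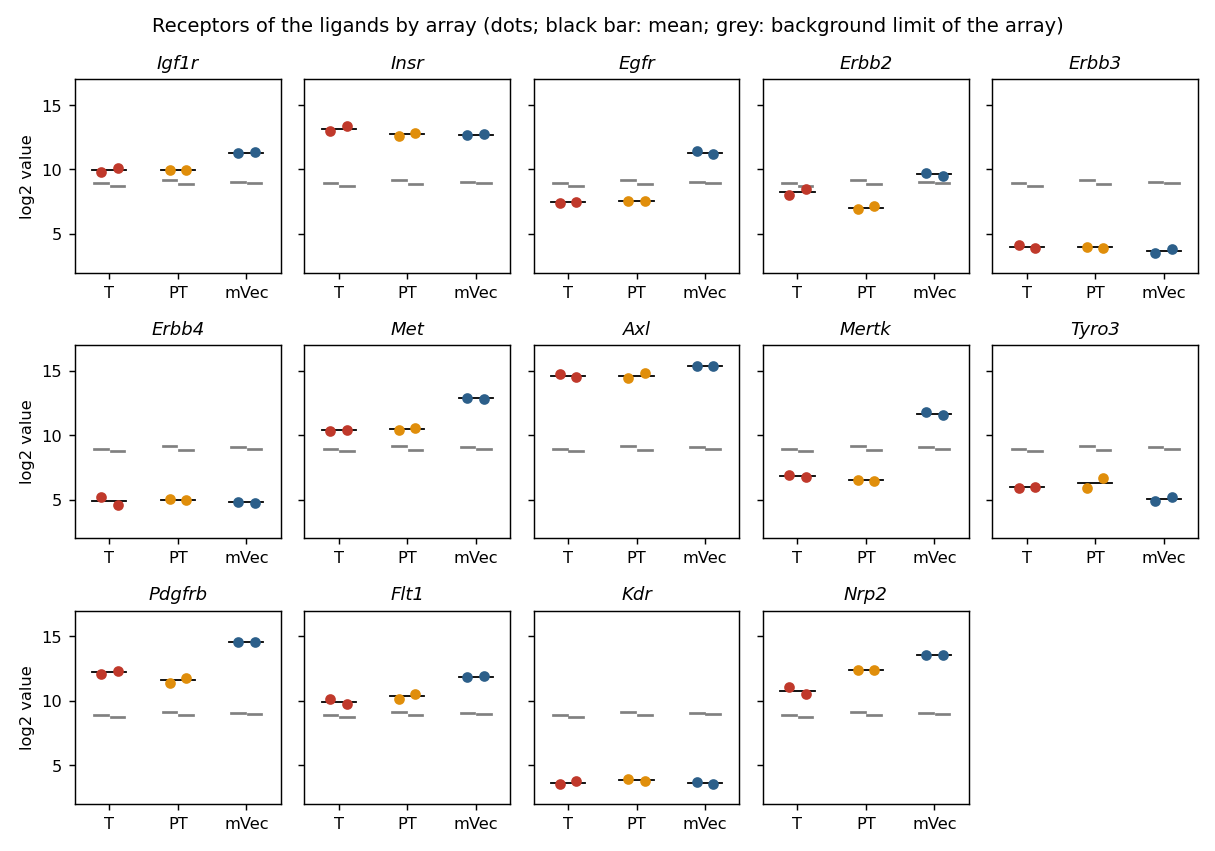
Log2 expression of the 14 measured receptors on each array (y axis) for T, PT and mVec (x axis), with 1 dot per array, a black bar at the group mean and grey bars at the background limit of the array. Egfr, Erbb2 and Mertk are above the limit only in mVec, and Erbb3, Erbb4, Tyro3 and Kdr on no array.

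Other ligands of receptor tyrosine kinases were mostly at background: 15 of 45 measured genes were above the limit on any array. In T, 16 fell and 4 rose, beside 15.5% and 16.9% of all gene probe sets. In PT, 16 fell and 5 rose, beside 18% and 17.9%, and 7 of the called genes were at background in both groups in each comparison. Their median differences were -0.24 in T and -0.18 in PT. The genes named by the size of the log2 difference exceeded the limit on the mVec arrays alone, so that their log2 differences have no certain size and only the bounds give a fold. They were Angpt1, the ligand of the vessel receptor Tek (-5.94 ± 0.24 in T and -6.10 ± 0.24 in PT), Vegfd, a growth factor of lymphatic vessels (-5.31 ± 0.24 and -5.30 ± 0.24), Pros1, a relative of Gas6 that activates Mertk and Tyro3 (-5.16 ± 0.23 and -5.45 ± 0.23), and Fgf1, a ligand of the FGF receptors (-4.28 ± 0.25 and -3.95 ± 0.25). As bounds, Angpt1 was at least 2.21-fold and 1.96-fold lower in T and PT, Vegfd at least 6.99-fold and 6.17-fold, Pros1 at least 4.35-fold and 3.85-fold, and Fgf1 at least 1.89-fold and 1.67-fold. Added after their values were seen, Igf2, a ligand of Igf1r, fell by a factor of at least 4.35 in T and 3.85 in PT. Bdnf, the ligand of the Ntrk2 receptor, was above the limit in all groups and 4.40-fold lower in T and 6.67-fold lower in PT (limma adjusted p = 9.41e-05 and 1.3e-05).

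Those called higher are named in full after their values were seen. They were Gdnf, Efna1, Csf1 and Fgf21 in T, and Gdnf, Efna1, Csf1, Fgf2 and Efnb3 in PT. Gdnf, a ligand of the Ret receptor complex, had log2 values of 9.96 and 10.18 on the T arrays, 9.61 and 10.22 on the PT arrays and 5.86 and 6.76 on the mVec arrays, where it was at background. Its rise was at least 2.09-fold for T and 1.88-fold for PT (limma adjusted p = 1.36e-05 and 1.22e-05). Fgf2, Fgf21 and Efnb3 were at background in the groups compared. The count higher in PT was 2 without PT replicate 1 and 3 without either mVec array. Fgf2 was lost in 4 of 11 alternatives, Efnb3 in 2 of 11 and Csf1 in 2 of 13, and in T Csf1 and Efna1 were each lost in 1 of 13, without mVec replicate 2. Between T and PT, the PDGF relative Pdgfc was 1.94-fold higher in T (limma adjusted p = 0.0284). That call was lost in 6 of 13 alternatives, of which 5 leave out an array other than T replicate 1. Among those 6, the fit of T and PT alone and the fits without either mVec array are the same test. Fgf21 was called higher in T than in PT at background, and 0 genes of this list were called lower.

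Of 21 measured genes that cut, activate or modify these ligands, 4 rose and 5 fell in T, beside 16.9% and 15.5% of all gene probe sets. In PT 4 rose and 5 fell, beside 17.9% and 18%. These counts are near those shares. Pcsk6, a furin-like proprotein convertase, was above the limit on 1 T array and both PT arrays, with log2 values of 8.66 and 9.35 on the T arrays, 9.82 and 10.00 on the PT arrays and 5.93 and 6.29 on the mVec arrays. Its log2 values were called higher by 2.89 ± 0.27 in T and 3.80 ± 0.27 in PT (limma adjusted p = 2.23e-05 and 2.6e-06). With mVec at background these differences have no certain size, and the bounds were at least 1-fold for T and 1.87-fold for PT. The others called higher were Furin, Rhbdf2, a cofactor of the Hbegf-releasing protease Adam17, and Spint1, an inhibitor of the proteases that activate Hgf, which was at background. The Furin call was lost in 4 of 13 alternatives in T and 5 of 13 in PT. Adam17 itself gave -0.02 ± 0.24 in T and 0.33 ± 0.24 in PT, which did not pass the test.

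Plat, the tissue plasminogen activator, fell by 4.62 ± 0.21 on the log2 scale in T and was at least 41.6-fold lower in PT. Vkorc1 and Ggcx, enzymes of the vitamin K cycle that carboxylates Gas6 and Pros1, also fell. Vkorc1 was 8.05-fold lower in T and 14.6-fold lower in PT. Ggcx was 6.14-fold lower in T, and at background in PT, a fall of at least 6.82-fold. Adam10 and Bace1, proteases that shed membrane proteins including Nrg1 in the case of Bace1, were the others called lower, and the T call of Bace1 was lost without T replicate 1 or mVec replicate 2. Between T and PT, Plat alone of this list passed, at least 1.69-fold higher in T (1.24 ± 0.21, limma adjusted p = 0.0075), and it was lost without T replicate 2 or PT replicate 1 (adjusted p up to 0.0652).

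**Figure D4:**
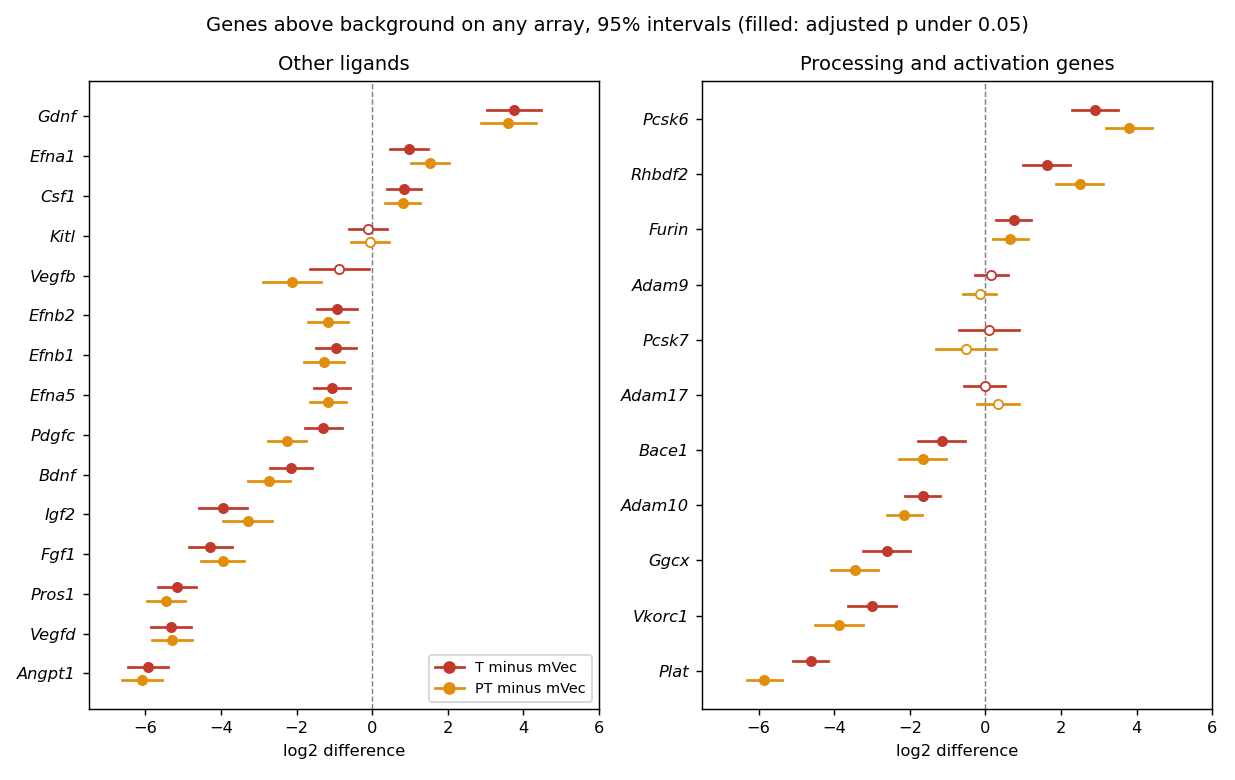
Log2 differences (x axis) from mVec of the 15 other ligands and the 11 processing genes above the background limit on any array, for T (red) and PT (orange), with 95% intervals from the limma fit that are not adjusted for the number of genes. Filled dots passed an adjusted p under 0.05. Gdnf (3.75 and 3.60) and Pcsk6 (2.89 and 3.80) lie farthest right, and Angpt1 (-5.94 and -6.10) and Plat (-4.62 and -5.86) farthest left. Differences with a group at background have no certain size, as with mVec for Gdnf and Pcsk6, T and PT for Angpt1, and PT for Plat. There only the bounds in the text give a fold.

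The genes with the nearest profile to a member were found by the Euclidean distance between log2 values over 6 arrays, each gene centred on its own mean, among 7127 other probe sets with a symbol that were above the limit on both arrays of a group. Only members called in a comparison and above the limit in a group were used. The nearest to Igf1 were Usp18 (distance 0.677), an interferon-induced protease for ISG15, and the transporter gene Abca9 (1.06). Like Igf1, both were under the limit on the T and PT arrays, so that the likeness there is between background values. The nearest to Nrg1 were Lpcat4 (0.391), an enzyme of phospholipid remodelling, and Ect2 (0.447), a gene that acts in cytokinesis. Lpcat4 was under the limit on the mVec arrays (6.95 and 7.04), as Nrg1 was. The nearest to Hbegf were the histone genes H2ac12 (0.231) and H3c13 (0.289), which have near-identical copies that a probe set may not separate. The nearest to Vegfa were Hccs (0.246), which attaches haem to cytochrome c, and Mre11a (0.291), a nuclease of DNA break repair. As an example of the likeness, Ect2 averaged 13.17 in T, 14.35 in PT and 9.58 in mVec.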

How the data were processed

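RNA was measured on 6 Clariom S arrays, run by a core facility, per the labels' protocols. The deposited table holds a log2 expression value for every probe set on every array, a unit read from the range of the values. No label or header names the authors' software, background correction or normalization. Of 28846 rows, 6640 control rows were left out and 22206 gene probe sets were tested without a filter; 19572 carry 1 symbol in the platform annotation, 0 several and 2634 none. One linear model with a mean per group was fitted with limma 3.58.1 in R 4.3.3 (3 residual and 6.36 prior degrees of freedom), and two-sided p-values received Benjamini-Hochberg adjustment across the gene probe sets of each comparison, with calls at an adjusted p under 0.05. The number of arrays limits the precision. The fit was tested on simulated data.

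The members, the gene lists and the background limit were chosen with earlier results of these data known. All 10 members and all measured receptors are named. Of the 2 other lists, up to 4 called genes above the limit per comparison are named, by size of difference, plus short lists of calls given in full after their values were seen. For a member called in a comparison and above the limit in a group, the 2 nearest profiles are named. Alternatives were centring, quantile normalization, a trended prior, 2 filters on dim probe sets, a replicate block, fits of 2 groups, leaving out each array and a limit at the 99th percentile. Leaving out an array of the group not compared gives the same test as fitting the 2 groups alone. Counts of alternatives thus include that test more than once. No member had a second probe set, so that a choice of another probe set could not be tried.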

Additional observations from a re-analysis of the deposited data

Results flagged for a closer look

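The difference between T and PT, which is also the difference between their 2 shifts from mVec, passed the test for 2 ligands. For Igf1, T minus PT was -1.18 on the log2 scale, with both lines at background. For Nrg1 it was -1.24, with both lines above the limit. With 2 arrays per group, no group was large enough for a test of single outlying arrays.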

How the results depend on the processing

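Calls of Igf1, Nrg1, Hbegf and Vegfa against mVec kept their direction and passed in all 13 alternatives in both T and PT, and those of Pdgfb in all 12 that held its probe set. The count of ligands lower in T than in mVec was 3 as reported and 1 when only probe sets above the limit on at least 2 arrays were tested, since that filter drops Pdgfb and Hgf. Leaving out any 1 array gave 2 there. The count lower in T than in PT was 2 as reported and 4 with a trended prior, 4 with probe sets above the median mean, 4 with those above the limit on at least 2 arrays and 1 with T and PT fitted alone, and it ran from 0 to 2 with 1 array left out (0 without T replicate 2 or PT replicate 1). All gene probe sets called between T and PT numbered 1857 as reported and 549 to 1714 with 1 array left out (549 without PT replicate 1, 659 without T replicate 2, 801 without PT replicate 2). The causes were not tested. Uncalled values changed sign for Gas6 (T minus mVec, -0.32 without T replicate 2, range -0.32 to 0.57 over single arrays left out; T minus PT, 0.31 without T replicate 1, range -0.58 to 0.31) and Vegfa (T minus PT, 0.0094 without T replicate 2, range -0.89 to 0.0094), and the cause was not tested. With the limit at the 99th percentile (12.15 to 13.07), only Igf1 in mVec, Nrg1 in PT and Vegfa in T and PT were above it on both arrays, and the bounds shrank. The fall of Igf1 was then at least 2.99-fold in T and 2.52-fold in PT, against 31.9-fold and 28.2-fold, the rise of Nrg1 in PT at least 1.005-fold, against 14.5-fold, and no bound is given for Nrg1 in T. Vegfa, with mVec then at background, was at least 1.45-fold higher in T and 1.96-fold higher in PT. Replicate numbers in the titles did not pair the arrays (r = 0.082, 0.043 and 0.040 between groups, across genes). With the number as a block, the ligands called were 3 higher and 3 lower in T and 3 higher and 3 lower in PT against mVec, where Pdgfa passed (adjusted p = 0.0257), and 0 higher and 2 lower in T against PT.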
